A study of Homo sapiens with 25 samples.

Results

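The 32 genes described here are ATF4, genes of amino acid supply and stress that are linked to it, and 12 genes of cytosolic aminoacyl-tRNA synthetases. They were taken by name from a table of 28395 gene rows. The rule uses no measured value, but the list was drawn up with earlier results of these data known. All 32 passed the filter on low counts, as 32 of the 14658 genes tested. RNA was measured in A549, an established human lung carcinoma line, here carrying the mAID degron tag on TRRAP, a large scaffold protein that SAGA and TIP60, chromatin-modifying complexes with histone acetyltransferases, share. The controls carry the tag too, and every group went through the same synchronization, a thymidine block (2 mM, 20 h) followed by a release of 4 h. The 4 groups of 3 libraries are the DMSO control, prexasertib (a CHK1 inhibitor) for 3 h, 5-Ph-IAA (the ligand that triggers degradation of the tagged protein) at 1 µM for 6 h, and both drugs. The labels of these libraries give the genotype as WT while the growth protocol names the tagged cells, so the grouping follows the sample titles. No prexasertib dose is given here, because the labels state it in different units for different samples. 5-Ph-IAA in cells without the tag and the TRRAP protein are not analysed here, so an effect of the ligand itself and of TRRAP loss cannot be told apart.

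ATF4 is a transcription factor whose own mRNA is translated more when the initiation factor eIF2 is phosphorylated by kinases that sense amino acid shortage, unfolded protein in the endoplasmic reticulum, double-stranded RNA or lack of heme. With partners of the C/EBP family it binds C/EBP-ATF response elements and raises genes that make, import and load amino acids onto tRNA, together with stress genes such as DDIT3 (CHOP) and TRIB3. mRNA levels of ATF4 do not show this control of translation. TRRAP is also a cofactor of MYC, which binds E-boxes and is known to act on genes of protein synthesis.

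RefSeq promoter windows (GRCh38.p14, 250 bases before to 50 after a transcript start) were at hand for 27 of the 32 genes. The letters TGATGNAA, the core of the C/EBP-ATF response element, stood on either strand in 10 of the 27 windows (37%), against 3.62% of all 35116 windows. The genes were chosen for their link to ATF4, so this difference is not independent of the choice. The 10 sites are shown because the genes that hold them include 6 synthetases and both groups that are compared below, those that fell with 5-Ph-IAA and those that did not. Each is printed 5′ to 3′ on the strand that reads TGATGNAA, with these 8 bases in capitals.
AARS1 (chr16:70289675-70289704, plus strand): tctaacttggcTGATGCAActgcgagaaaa
CARS1 (chr11:3057407-3057436, plus strand): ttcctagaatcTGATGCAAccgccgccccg
IARS1 (chr9:92293692-92293721, plus strand): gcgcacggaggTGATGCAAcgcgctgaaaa
MARS1 (chr12:57488053-57488082, minus strand): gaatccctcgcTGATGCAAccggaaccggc
NARS1 (chr18:57621804-57621833, minus strand): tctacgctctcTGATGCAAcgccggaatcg
TARS1 (chr5:33440956-33440985, minus strand): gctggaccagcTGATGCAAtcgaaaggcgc
SLC3A2 (chr11:62881725-62881748, minus strand): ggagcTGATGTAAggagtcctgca
SLC7A1 (chr13:29595663-29595692, minus strand): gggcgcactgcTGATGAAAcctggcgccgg
ASNS (chr7:97872458-97872487, minus strand): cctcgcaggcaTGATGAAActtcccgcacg
CHAC1 (chr15:40953251-40953280, minus strand): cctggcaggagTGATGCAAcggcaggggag
In 7 genes the core read TGATGCAA, in ASNS and SLC7A1 it read TGATGAAA, and in SLC3A2 it read TGATGTAA. For ASNS, SLC3A2 and TARS1 the window lies at a transcript start inside the span of the gene. A match of letters is a description and not a binding site.

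The E-box letters CACGTG, which read the same on both strands and do not overlap TGATGNAA, stood in 3 of the 27 windows (11.1%), those of ATF4, SLC7A5 and IARS1, against 7.26% of all windows. The 250 bases before the ATF4 start and before the AARS1 start are shown as those of the transcription factor itself and of the synthetase with the largest fall with 5-Ph-IAA. Capitals mark CACGTG in ATF4 and, in AARS1, TTGCATCA, which is TGATGCAA read on the other strand.
ATF4 (chr22:39520309-39520558, plus strand): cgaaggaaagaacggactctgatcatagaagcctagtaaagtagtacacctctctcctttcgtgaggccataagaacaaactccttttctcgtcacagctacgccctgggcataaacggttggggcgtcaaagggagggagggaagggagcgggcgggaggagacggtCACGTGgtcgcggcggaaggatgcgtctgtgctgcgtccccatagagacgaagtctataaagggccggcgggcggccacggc
AARS1 (chr16:70289507-70289756, minus strand): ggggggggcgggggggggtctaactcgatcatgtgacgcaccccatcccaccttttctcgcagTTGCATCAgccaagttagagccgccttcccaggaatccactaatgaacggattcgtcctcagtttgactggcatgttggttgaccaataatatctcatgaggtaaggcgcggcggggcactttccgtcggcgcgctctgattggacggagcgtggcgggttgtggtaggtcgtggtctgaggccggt
ATF4 had no TGATGNAA in its window and AARS1 had no CACGTG.

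Levels below are CPM, counts relative to the library's TMM-scaled total, and changes are log2 fold changes with their standard error (SE) from edgeR's quasi-likelihood test, called at an adjusted p under 0.05 (Benjamini-Hochberg over all 14658 genes). Total counts per library ran from 10830048 to 17789482, and the members were covered by 46 counts (CHAC1, lowest library) up to 32280 counts (SLC7A5, highest library). Within every group, replicate 3 stood apart: the chi-square per gene between it and another replicate was 13 to 19.5, against 2.24 to 3.97 between replicates 1 and 2. Same-numbered libraries deviated from their group means together in all 18 pairs (r 0.22 to 0.633), although differently numbered pairs reached up to 0.366 (from -0.503) and 10 of 12 libraries correlated best with their own number. A fit with the replicate number as a block is printed where it changes a member's call or moves a count by over 1.5 times. It is not stated that the libraries came from separate cultures, and p-values here measure how far these samples spread, which may be technical. TRRAP mRNA, which the degron does not target, rose with 5-Ph-IAA by 0.67 ± 0.14 (edgeR adjusted p = 0.0042) and is no check of the labels. Epithelial keratin genes (KRT7, KRT8, KRT18) marked the line, although EPCAM and KRT19 were low. The 9 markers of the line were KRT7, KRT8, KRT18, KRT19, EPCAM, CDH1, NQO1, AKR1B10 and AKR1C1. The last 3 encode metabolic enzymes and are not epithelial markers. Summed over all 9 the level was 13645.8 to 15127.2 CPM in DMSO and 11604 to 11857.5 CPM with 5-Ph-IAA. There 3 of the 9 were called lower, where 12.2% of all genes were. It was 6 with the replicate block (23.6% of all genes), 5 with DESeq2 (13.6%) and 0 with library size only (6.73%). These counts do not separate epithelial genes from the enzymes. Over 14 markers of blood, endothelium, fibroblasts and neural cells it was 36.7 to 41.1 and 35.4 to 43.4 CPM, mostly CD68 (mean 30.5 CPM), with DCN at 0 counts. Of the 3 that passed the filter, PDGFRB (mean 1.63 CPM) rose by 1.45 ± 0.34 with 5-Ph-IAA (edgeR adjusted p = 0.0084). The part of these shifts in the results below was not tested.

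With 5-Ph-IAA alone the genes fell or did not pass the test, and none rose. In bulk RNA, fewer cells with a transcript and less of it per cell cannot be told apart. Against DMSO 16 of 32 were called lower, where 12.2% of all genes were, and 0 of 32 were called higher, where 9.65% of all genes were. At an unadjusted p under 0.05 there were 22 lower and 0 higher, where 2667 and 2399 of the 14658 genes tested were. The median change was -0.29, against 0.01 for all genes, and 29 of the 32 values were negative. In 20 of 32 genes all 3 libraries with 5-Ph-IAA lay below all 3 DMSO libraries, which held for 18.9% of all genes. With the replicate block 26 were lower and 0 higher, where it called 23.6% of all genes lower and 19% higher. By role, 4 of 11 regulators and stress genes were lower (8 with the block), 1 of 6 synthesis genes (4 with the block), 2 of 3 transport genes and 9 of 12 synthetases.

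Both drugs set against prexasertib alone shares no library with that first comparison. Both comparisons come from the same fit to all 12 libraries, so they share its estimate of the spread. Here and below, under prexasertib names this comparison and not an order of addition. 5-Ph-IAA was given for 6 h and prexasertib for 3 h. In this second comparison 14 of 32 genes were called lower (10.4% of all genes) and 0 were called higher (7.85% of all genes). At an unadjusted p under 0.05, 20 were lower and 0 higher, where 2343 and 2230 of the 14658 genes tested were. The median was -0.30 against 0.01 for all genes, and 20 of 32 genes had no overlap between the groups, all downwards (17.6% of all genes). The block gave 23 lower and 0 higher, where it called 19.9% of all genes lower and 17.2% higher. By role these were 3 of 11 regulators and stress genes (8 with the block), 1 of 6 synthesis genes (2 with the block), 2 of 3 transport genes and 8 of 12 synthetases. The 14 genes called here were also among the 16 called without prexasertib (87.5% of those). The share of calls common to both over all genes was not counted. The 2 that were not shared are NARS1 and TRIB3.

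**Figure D1:**
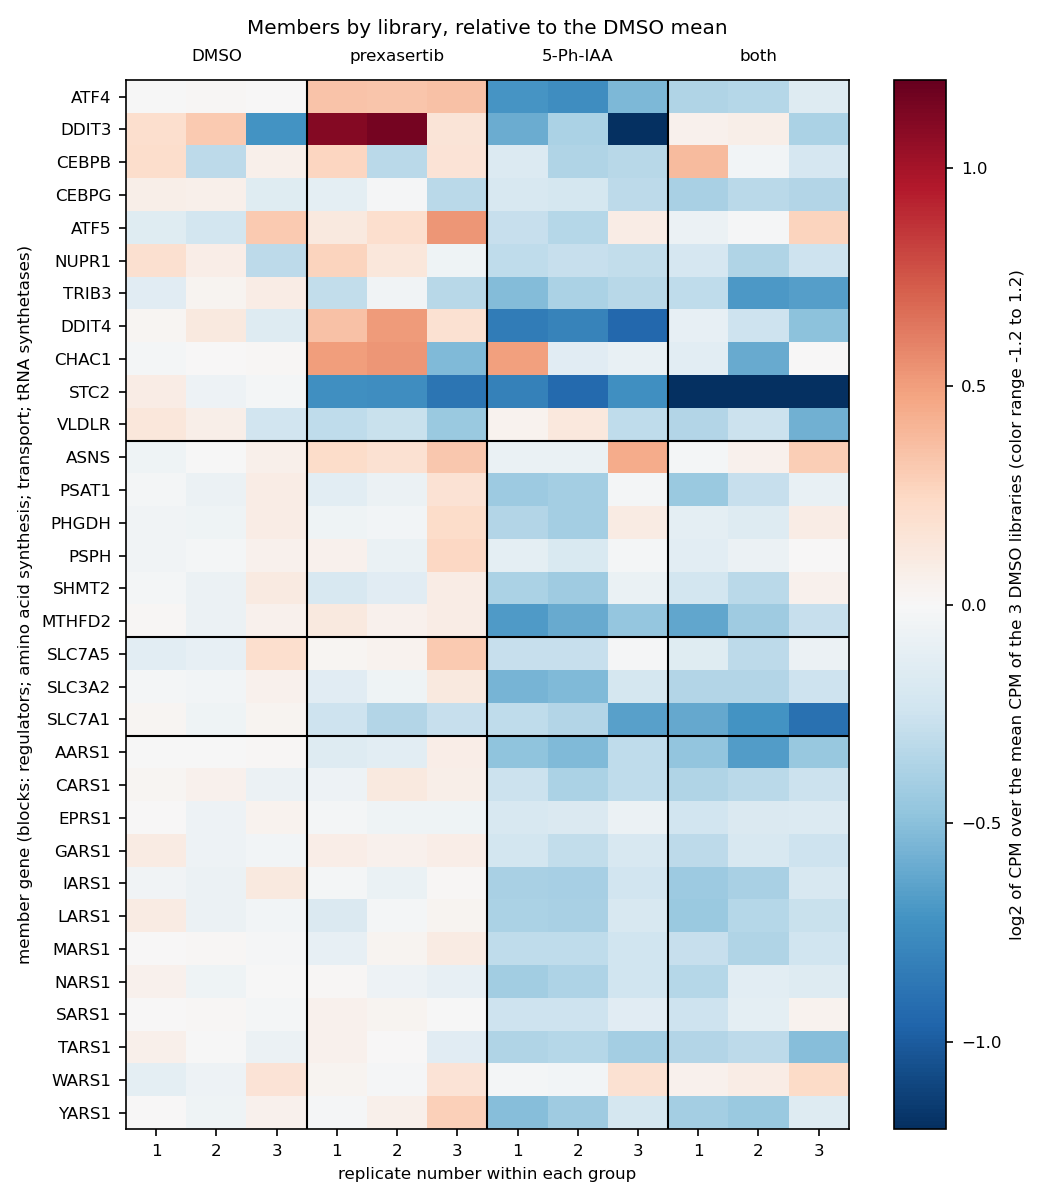
Each row is a gene and each column a library in the 4 groups. Color is the log2 ratio of its CPM to the mean of the 3 DMSO libraries, limited to the range -1.2 to 1.2. Blue in the last 6 columns marks lower levels with 5-Ph-IAA, with and without prexasertib, in most rows, with WARS1 and ASNS among the exceptions. DDIT3 was lower in replicate 3 of every group.

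ATF4 itself (NCBI Gene 468, hg38 chromosome 22, 39520559 to 39522686) was measured in the 3 DMSO libraries at 257, 259.8 and 258 CPM, with prexasertib at 328, 324 and 329.6, with 5-Ph-IAA at 158, 154 and 177, and with both drugs at 201, 204 and 232. The 4 groups did not overlap, in the order 5-Ph-IAA, both drugs, DMSO, prexasertib. ATF4 fell with 5-Ph-IAA by 0.66 ± 0.072 (SE; edgeR adjusted p = 3.7e-05), which is 1.58-fold, and by 0.62 ± 0.072 when prexasertib was present (edgeR adjusted p = 6.7e-05).

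DDIT4 (REDD1, an inhibitor of mTORC1; chromosome 10, 72273924 to 72276036) showed the same order of groups. Its libraries stood at 177, 189 and 156 CPM in DMSO, 222, 248 and 198 with prexasertib, 97, 99.8 and 90.8 with 5-Ph-IAA and 163, 146 and 124 with both drugs. All 5-Ph-IAA libraries lay below all others, while the group with both drugs overlapped DMSO. DDIT4 fell by 0.86 ± 0.11 with 5-Ph-IAA (edgeR adjusted p = 1.2e-04), the largest fall among the members that passed the test, and in the presence of prexasertib by 0.62 ± 0.11 (edgeR adjusted p = 0.0014).

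STC2, a secreted glycoprotein hormone (chromosome 5, 173314723 to 173328414), was lower with either drug and lowest with both. It stood at 122, 110 and 113 CPM in DMSO, 69.2, 68.7 and 62.7 with prexasertib, 65.5, 60.2 and 69.1 with 5-Ph-IAA and 46.6, 41.6 and 44.7 with both drugs. The single-drug groups overlapped each other and lay between the other groups. The fall with 5-Ph-IAA was 0.83 ± 0.079 without prexasertib (edgeR adjusted p = 1.2e-05) and 0.59 ± 0.081 with it (edgeR adjusted p = 2.6e-04).

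**Figure D2:**
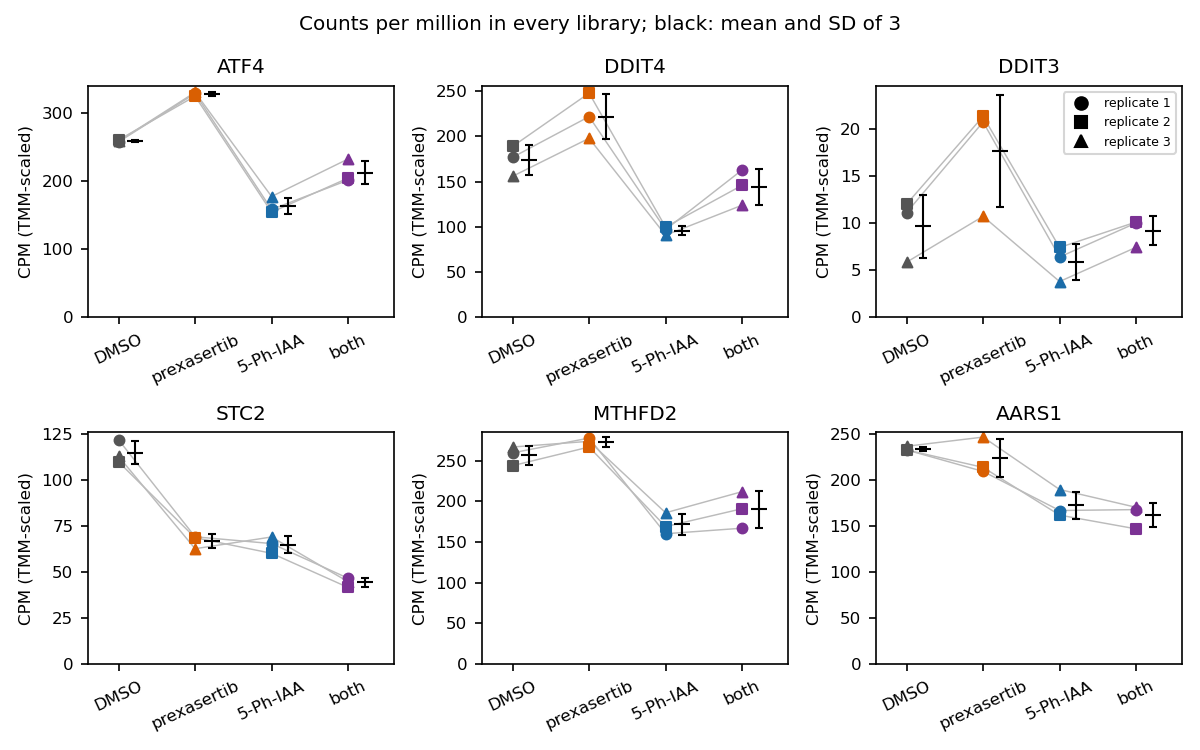
CPM (TMM-scaled) of 6 members in every library, with circles, squares and triangles for replicates 1, 2 and 3, lines joining equal numbers, and black marks for the mean and SD of 3. ATF4 and DDIT4 are highest with prexasertib and lowest with 5-Ph-IAA, STC2 is lower with each drug, and DDIT3 in replicate 3 is the lowest of each group.

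DDIT3, which encodes the stress transcription factor CHOP, stood at 11.1, 12 and 5.84 CPM in DMSO, 20.7, 21.3 and 10.7 with prexasertib, 6.39, 7.4 and 3.79 with 5-Ph-IAA and 10, 10.1 and 7.42 with both drugs. Replicate 3 was the lowest of each group, and DMSO replicate 3 lay below 5-Ph-IAA replicates 1 and 2, so these groups overlapped. The change with 5-Ph-IAA was -0.70 ± 0.33 (edgeR adjusted p = 0.16), and same-numbered libraries gave -0.78, -0.68 and -0.60. With the block it was -0.70 (adjusted p = 2.1e-04). Under prexasertib it was -0.94 ± 0.32 (edgeR adjusted p = 0.06; -0.90 and 8e-07 with the block). DDIT3 shares 65 bases with the MARS1 gene and 2769 with another annotated gene, and the strand setting of the counting is not given in the sources used here, so its counts are uncertain.

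TRIB3, a pseudokinase that restrains AKT and ATF4 signalling, stood at 52.2, 58.9 and 61.2 CPM in DMSO, 46.7, 55.8 and 45.7 with prexasertib, 39.9, 44 and 45.6 with 5-Ph-IAA and 46.5, 35.7 and 36.4 with both drugs. All 5-Ph-IAA libraries lay below all DMSO libraries. TRIB3 fell by 0.41 ± 0.12 (edgeR adjusted p = 0.022), a call lost without DMSO replicate 2, DMSO replicate 3, 5-Ph-IAA replicate 1 or 5-Ph-IAA replicate 2 (adjusted p up to 0.091). Under prexasertib it changed by -0.32 ± 0.12 (edgeR adjusted p = 0.077; 0.012 with the block).

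The other 6 genes of this regulatory and stress group did not pass the test in either comparison. CEBPG (a C/EBP partner of ATF4), ATF5 (a relative of ATF4) and NUPR1 (a stress-induced chromatin protein) had values of -0.24, -0.16 and -0.30 with 5-Ph-IAA (edgeR adjusted p = 0.063, 0.53 and 0.13), and passed with the block (0.0019, 0.026 and 0.035). Under prexasertib the same genes had -0.21, -0.23 and -0.39 (edgeR adjusted p = 0.11, 0.38 and 0.058), and the block again called each (0.011, 0.0017 and 0.0065). CEBPB (a C/EBP factor), CHAC1 (a glutathione-degrading enzyme) and VLDLR (a lipoprotein receptor) had -0.29, 0.11 and -0.03 with 5-Ph-IAA and 0.01, -0.46 and -0.05 under prexasertib. CHAC1 had group means from 5.34 to 7.36 CPM, and its SE was 0.27. ATF5 shares 599 bases with NUP62, which had 25370 counts over all libraries against 16948 for ATF5. With the strand setting not given, the ATF5 counts are uncertain, as for DDIT3.

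Among the 6 genes of serine, glycine, one-carbon and asparagine synthesis, MTHFD2 passed the test and 5 did not. MTHFD2, a mitochondrial one-carbon enzyme (chromosome 2, 74198615 to 74217565), stood at 259.8, 244 and 267 CPM in DMSO, 278, 267 and 274 with prexasertib, 160.2, 169 and 186 with 5-Ph-IAA and 167, 191 and 212 with both drugs. All 6 libraries with 5-Ph-IAA lay below all 6 without it. MTHFD2 fell by 0.58 ± 0.086 without prexasertib (edgeR adjusted p = 3.9e-04) and by 0.52 ± 0.086 with it (edgeR adjusted p = 0.001).

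ASNS, asparagine synthetase and a widely used ATF4 target, did not pass the test for the fall that ATF4 showed with 5-Ph-IAA. It stood at 92.6, 95.6 and 99.9 CPM in DMSO, 112, 109 and 120.2 with prexasertib, 90.7, 90.9 and 130.4 with 5-Ph-IAA and 94.6, 99.3 and 118 with both drugs. Replicate 3 was the highest of each group, most of all with 5-Ph-IAA, and the groups with and without 5-Ph-IAA overlapped. The change with 5-Ph-IAA was 0.11 ± 0.13 (edgeR adjusted p = 0.58), with -0.03, -0.07 and 0.38 for the 3 replicate numbers, and -0.13 ± 0.13 under prexasertib (edgeR adjusted p = 0.54). Without replicate 3 of every group the fall under prexasertib was called. With prexasertib alone all ASNS libraries lay above all DMSO libraries, as for ATF4 (0.25, edgeR adjusted p = 0.36, or 0.0081 with the block). ASNS lies within the annotated readthrough gene CZ1P-ASNS.

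PSAT1, PHGDH and PSPH, the enzymes of serine synthesis, and SHMT2, which moves a carbon unit from serine, had -0.28, -0.20, -0.10 and -0.29 with 5-Ph-IAA (edgeR adjusted p = 0.13, 0.27, 0.45 and 0.089). With the block PSAT1, PHGDH and SHMT2 were called lower (adjusted p = 1.6e-05, 0.0024 and 1.8e-05). Under prexasertib the values were -0.26, -0.11, -0.14 and -0.08, and the block called PSAT1 (8.5e-05).

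Of the 3 transport genes, SLC3A2 and SLC7A1 fell. SLC3A2, the heavy chain CD98 of several amino acid transporters, stood at 903, 897 and 952 CPM in DMSO, 836, 882 and 993 with prexasertib, 622, 634 and 791 with 5-Ph-IAA and 718, 719.5 and 773 with both drugs. All 5-Ph-IAA libraries lay below all DMSO libraries. SLC3A2 fell by 0.43 ± 0.096 (edgeR adjusted p = 0.0064), and under prexasertib by 0.29 ± 0.096 (edgeR adjusted p = 0.048). This last call was lost without replicate 1 or 2 of DMSO, 2 or 3 of prexasertib, 1 or 2 of 5-Ph-IAA, or 1 or 2 of both drugs (adjusted p up to 0.13).

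SLC7A1, the cationic amino acid transporter CAT-1, stood at 91.2, 86.5 and 91.7 CPM in DMSO, 75.4, 70.6 and 74.3 with prexasertib, 72.7, 70.2 and 57 with 5-Ph-IAA and 58.7, 54.7 and 48.4 with both drugs. DMSO was the highest group and both drugs, apart from 1 overlap with 5-Ph-IAA, the lowest. SLC7A1 fell by 0.43 ± 0.096 with 5-Ph-IAA (edgeR adjusted p = 0.0062) and with prexasertib present by 0.44 ± 0.098 (edgeR adjusted p = 0.0064). SLC7A5, the light chain LAT1 that pairs with SLC3A2, had -0.18 ± 0.12 and -0.30 ± 0.12 (edgeR adjusted p = 0.29 and 0.088; 0.0019 and 1.5e-06 with the block).

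Aminoacyl-tRNA synthetases, which load each amino acid onto its tRNA, made up most of the calls. Of 12, 9 fell with 5-Ph-IAA and 8 fell with 5-Ph-IAA under prexasertib, with medians of -0.32 and -0.30. The falls were small, between 0.23 and 0.44 in the first comparison. Of these, 6 are given by library below.

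AARS1, the alanyl-tRNA synthetase (chromosome 16, 70252298 to 70289506), whose site is printed above, stood at 233, 233 and 237 CPM in DMSO, 209.6, 214 and 247 with prexasertib, 167, 162 and 189.9 with 5-Ph-IAA and 168, 147 and 170.5 with both drugs. All 6 libraries with 5-Ph-IAA lay below all 6 without it. AARS1 fell by 0.44 ± 0.085 (edgeR adjusted p = 0.0028), 1.35-fold, and with prexasertib present by 0.47 ± 0.086 (edgeR adjusted p = 0.0021).

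TARS1, for threonine, stood at 281, 268 and 257 CPM in DMSO, 279.5, 269 and 245 with prexasertib, 209, 212 and 203 with 5-Ph-IAA and 211, 216 and 189 with both drugs. CARS1, for cysteine, stood at 78.8, 80.6 and 73.9 in DMSO, 74.5, 84.4 and 81.6 with prexasertib, 65, 59.8 and 63.1 with 5-Ph-IAA and 60.5, 61.9 and 64.8 with both drugs. In both genes every library with 5-Ph-IAA lay below every library without it. TARS1 fell by 0.37 ± 0.072 and 0.36 ± 0.072 (edgeR adjusted p = 0.0028 and 0.0034), and CARS1 by 0.31 ± 0.074 and 0.36 ± 0.074 (edgeR adjusted p = 0.0084 and 0.0044), without and with prexasertib.

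MARS1, for methionine, stood at 196, 197 and 193 CPM in DMSO, 182, 199 and 209 with prexasertib, 158, 158 and 165 with 5-Ph-IAA and 161, 152 and 165 with both drugs. GARS1, for glycine, stood at 198, 177 and 181 in DMSO, 196, 192 and 195 with prexasertib, 159, 151 and 162 with 5-Ph-IAA and 149, 162 and 156 with both drugs. Both genes again separated the 6 libraries with 5-Ph-IAA from the 6 without. MARS1 fell by 0.28 ± 0.066 and by 0.30 ± 0.066 (edgeR adjusted p = 0.0076 and 0.0063). GARS1 fell by 0.23 ± 0.065 and 0.32 ± 0.065 (edgeR adjusted p = 0.02 and 0.0042), and its first call was lost without DMSO replicate 1, 5-Ph-IAA replicate 1 or 5-Ph-IAA replicate 2 (adjusted p up to 0.088).

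NARS1, for asparagine, stood at 217, 202 and 208 CPM in DMSO, 211, 200.1 and 195 with prexasertib, 157, 162 and 177 with 5-Ph-IAA and 165, 192 and 188 with both drugs. The libraries with 5-Ph-IAA again lay below those without. NARS1 fell by 0.34 ± 0.074 without prexasertib (edgeR adjusted p = 0.0052), and under prexasertib changed by -0.15 ± 0.074 (edgeR adjusted p = 0.17; 0.029 with the block). The interaction, which tests the difference between these values, was 0.19 (edgeR adjusted p = 1).

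IARS1, LARS1 and YARS1, for isoleucine, leucine and tyrosine, fell by 0.34, 0.32 and 0.39 with 5-Ph-IAA (edgeR adjusted p = 0.0093, 0.013 and 0.016) and by 0.31, 0.29 and 0.44 under prexasertib (0.02, 0.024 and 0.0085). Without DMSO replicate 1, 5-Ph-IAA replicate 1 or 5-Ph-IAA replicate 2 the first LARS1 call was lost (up to 0.059), and without either of those 5-Ph-IAA replicates the first YARS1 call (up to 0.074). YARS1 shares 797 bases with S100PBP, so the limit of the strand setting stated for DDIT3 applies to it too. Under prexasertib the IARS1 call was lost without replicate 1 or 2 of both drugs (up to 0.086), and the LARS1 call also without prexasertib replicate 2 or 3 (up to 0.099). EPRS1, for glutamate and proline, and SARS1, for serine, had -0.14 and -0.21 with 5-Ph-IAA (edgeR adjusted p = 0.11 and 0.063; 0.023 and 0.0028 with the block), and -0.15 and -0.13 under prexasertib (0.097 and 0.28; 0.016 for EPRS1 with the block).

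WARS1, the tryptophan enzyme, which is also an interferon-induced gene, was the 1 synthetase with no fall in value. It stood at 133, 138 and 161 CPM in DMSO, 147, 143 and 161 with prexasertib, 142, 141 and 163 with 5-Ph-IAA and 149, 153 and 169 with both drugs. All groups overlapped, and the changes with 5-Ph-IAA were 0.04 ± 0.09 and 0.06 ± 0.09 (edgeR adjusted p = 0.77 and 0.68).

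**Figure D3:**
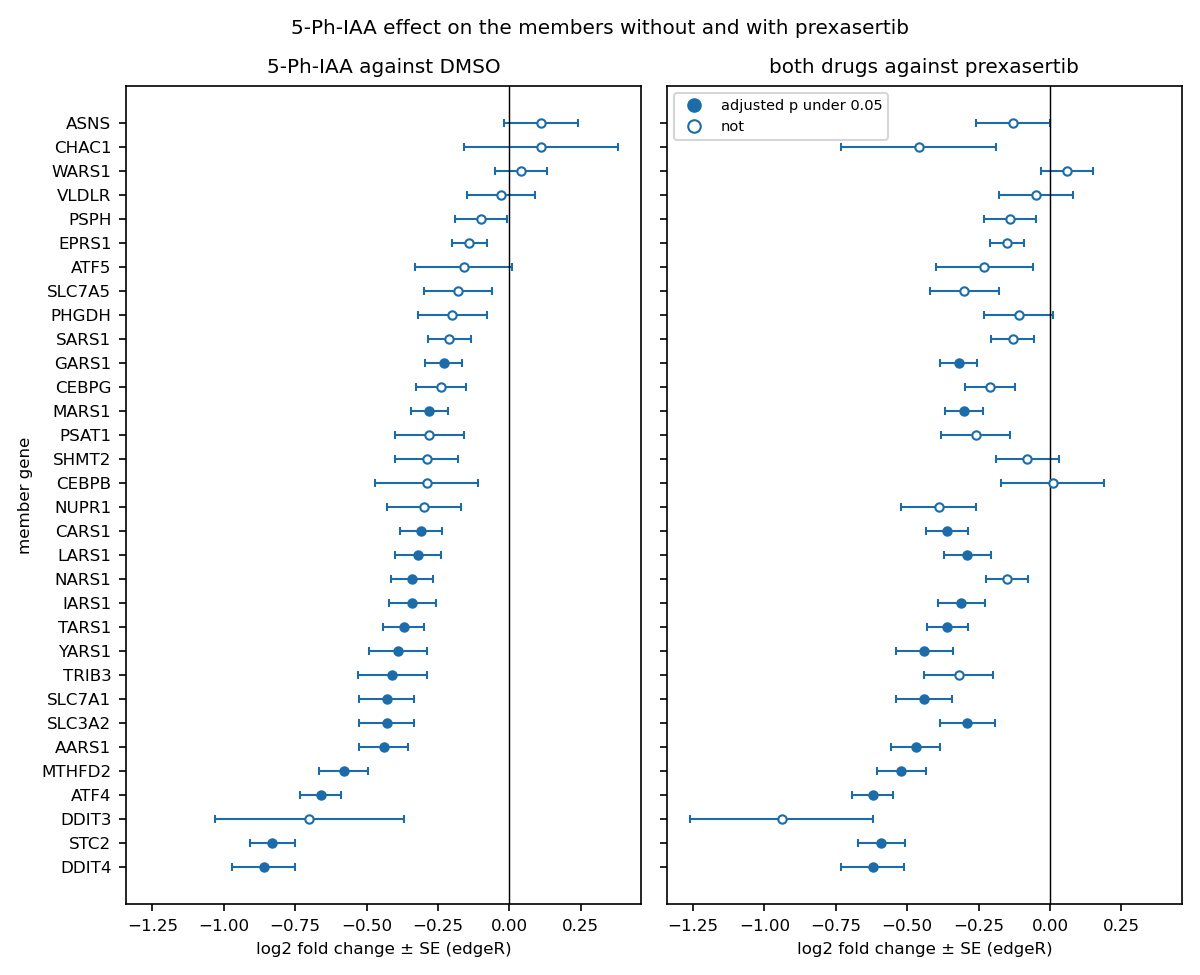
Log2 fold change ± SE (edgeR) of the 32 genes with 5-Ph-IAA against DMSO (left) and with both drugs against prexasertib (right), sorted by the left values, with filled points for an adjusted p under 0.05. The filled points, 16 on the left and 14 on the right, all lie below 0.

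The sites printed above were in 8 of the 14 called genes that had a window (57.1%) and in 2 of the 13 other members with one (15.4%). The 8 are 6 synthetases (AARS1, CARS1, IARS1, MARS1, NARS1 and TARS1) with SLC3A2 and SLC7A1, and the other 2 are ASNS and CHAC1. ATF4, DDIT4, STC2, TRIB3, MTHFD2 and GARS1 fell with none in the window. The E-box letters were in 2 of those 14 (14.3%) and in 1 of the 13 others (7.69%). These shares follow the calls of the main fit and depend on it. The replicate block also called DDIT3, CEBPG, ATF5, PSAT1, PHGDH, SLC7A5, EPRS1 and SARS1 lower, all with a window that lacks TGATGNAA. With library size only, SLC3A2 and AARS1 were the only genes with a site still called lower. A link between site and fall was not tested.

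Prexasertib moved few of these genes, and few of all genes. Against DMSO 1 of 32 was called higher (2.36% of all genes) and 1 was called lower (2.37% of all genes), with a median of 0.04. With 5-Ph-IAA present 2 were called higher (1.17% of all genes) and 1 lower (1.26% of all genes), with a median of 0.01. At an unadjusted p under 0.05, 3 were higher and 3 lower against DMSO, where 1168 and 1403 of the 14658 genes tested were. With 5-Ph-IAA present these were 2 and 3, where 888 and 1135 of all genes were. ATF4 rose in both, by 0.34 ± 0.072 without 5-Ph-IAA (edgeR adjusted p = 0.016) and by 0.38 ± 0.072 with it (edgeR adjusted p = 0.011). The first call was lost without DMSO replicate 1, DMSO replicate 2 or prexasertib replicate 2 (adjusted p up to 0.062), so that 0 genes were called higher, and the second without 5-Ph-IAA replicate 1 or 2 (up to 0.080), so that 1 was. Same-numbered libraries gave 0.35, 0.32 and 0.35 in the first comparison and 0.35, 0.40 and 0.39 in the second. STC2 fell in both, by 0.78 ± 0.08 (edgeR adjusted p = 1.1e-04) and by 0.55 ± 0.081 (edgeR adjusted p = 0.0023). So ATF4 and STC2, which fell together with 5-Ph-IAA, moved in opposite directions with prexasertib.

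DDIT4 rose with prexasertib when 5-Ph-IAA was present, by 0.59 ± 0.11 (edgeR adjusted p = 0.01; 0.056 without replicate 1 of both drugs). Without 5-Ph-IAA its change was 0.35 ± 0.11 (edgeR adjusted p = 0.086; 5.6e-06 with the block), although every prexasertib library lay above every DMSO library. The block called 6 higher and 3 lower without 5-Ph-IAA, where it called 8.37% and 9.77% of all genes, and 4 higher and 3 lower with 5-Ph-IAA, where it called 7.8% and 7.7%. The lower counts are thus near the share of all genes. In the first, DDIT3 (0.87), ATF5 (0.30), DDIT4 (0.35), ASNS (0.25) and SLC7A5 (0.13) joined ATF4, and VLDLR (-0.34) and SLC7A1 (-0.29) joined STC2, with block adjusted p of 5.1e-06, 1.4e-04, 5.6e-06, 0.0081, 0.044, 1.3e-04 and 0.002. With 5-Ph-IAA present, DDIT3 (0.63) and ATF5 (0.23) joined ATF4 and DDIT4, and VLDLR (-0.36) and SLC7A1 (-0.30) joined STC2, with block adjusted p of 0.0016, 0.0042, 6.7e-05 and 0.0021. Without prexasertib replicate 3 or without replicate 3 of both drugs the main fit called 2 higher, and without 5-Ph-IAA replicate 3 it called 2 lower and, with 5-Ph-IAA present, 3 lower. None of the 12 synthetases was called with prexasertib in edgeR, DESeq2, limma-voom or the block fit. In edgeR 0 had an unadjusted p under 0.05, where 2571 of the 14658 genes tested did without 5-Ph-IAA and 2023 with it. The synthetase values ran from -0.07 to 0.11 without 5-Ph-IAA and from -0.10 to 0.14 with it.

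Both drugs against DMSO gave 17 of 32 genes lower (14.2% of all genes) and 0 higher (11.8% of all genes), with a median of -0.27 against 0.01 for all genes. These libraries are shared with the comparisons above. STC2 had the largest fall, 1.37 (edgeR adjusted p = 9.3e-07), then SLC7A1 with 0.74 (1.5e-04), TRIB3 with 0.54 (0.0045) and AARS1 with 0.53 (5.9e-04). ATF4 was 0.28 lower (edgeR adjusted p = 0.011; up to 0.052 without replicate 1 or 2 of both drugs). CEBPG, VLDLR and EPRS1, not called with 5-Ph-IAA alone, were lower by 0.36, 0.39 and 0.19 (edgeR adjusted p = 0.009, 0.035 and 0.033). The VLDLR call was lost without replicate 1 or 2 of DMSO, 1 of prexasertib, or 1 or 3 of both drugs (up to 0.14), and the EPRS1 call without replicate 1 or 3 of DMSO or any replicate of both drugs (up to 0.11). WARS1 had 0.13 (edgeR adjusted p = 0.33; 0.044 with the block). DDIT4 had -0.27 (edgeR adjusted p = 0.083; 1.3e-04 with the block). The block also called NARS1 (-0.20), PSAT1 (-0.26), SHMT2 (-0.16) and SLC7A5 (-0.17) lower, at 0.0033, 3.9e-05, 0.012 and 0.0036 against 0.061, 0.13, 0.34 and 0.31 in edgeR without it, for 22 lower and 1 higher where it called 23.5% and 21.2% of all genes.

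The interaction asks whether the effect of a drug differed with the other drug present. In 0 of 32 genes was it called in edgeR (0% of all genes in either direction). At an unadjusted p under 0.05 there were 0 members, where 283 of the 14658 genes tested were higher and 236 lower. DESeq2, limma-voom and the block fit also called 0 members. The block fit called 0.375% of all genes higher and 0.28% lower. The values ran from -0.57 (CHAC1) to 0.30 (CEBPB), with a median SE of 0.14, and this error limits what the test could detect. ATF4 had 0.04, MTHFD2 0.06, AARS1 -0.03, TARS1 0.00, STC2 0.23 and DDIT4 0.24.

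The scaling of the libraries bears on the small falls. The TMM factors lay at 0.925 to 0.978 in the 6 libraries that had no 5-Ph-IAA and at 1.02 to 1.1 in the other 6. With library size alone the median of all genes with 5-Ph-IAA rose from 0.01 to 0.16, and the members' median moved from -0.29 to -0.14. The share of all called genes that were higher went from 44.2% to 75.4%, and the members called lower from 16 to 6, where library size alone called 6.73% of all genes lower and 20.6% higher. Those 6 were ATF4 (-0.51), DDIT4 (-0.70), STC2 (-0.67), MTHFD2 (-0.43), SLC3A2 (-0.27) and AARS1 (-0.28). AARS1 was thus the 1 synthetase of 12 still called, and EPRS1 (-0.14 to 0.02), VLDLR (-0.03 to 0.13) and PSPH (-0.10 to 0.05) changed sign, with no value called. Under prexasertib the members called lower went from 14 to 7 (6.06% of all genes lower and 17.5% higher) and the share of calls that were higher from 43% to 74.3%. Of the synthetases AARS1, CARS1 and YARS1 were still called there.

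**Figure D4:**
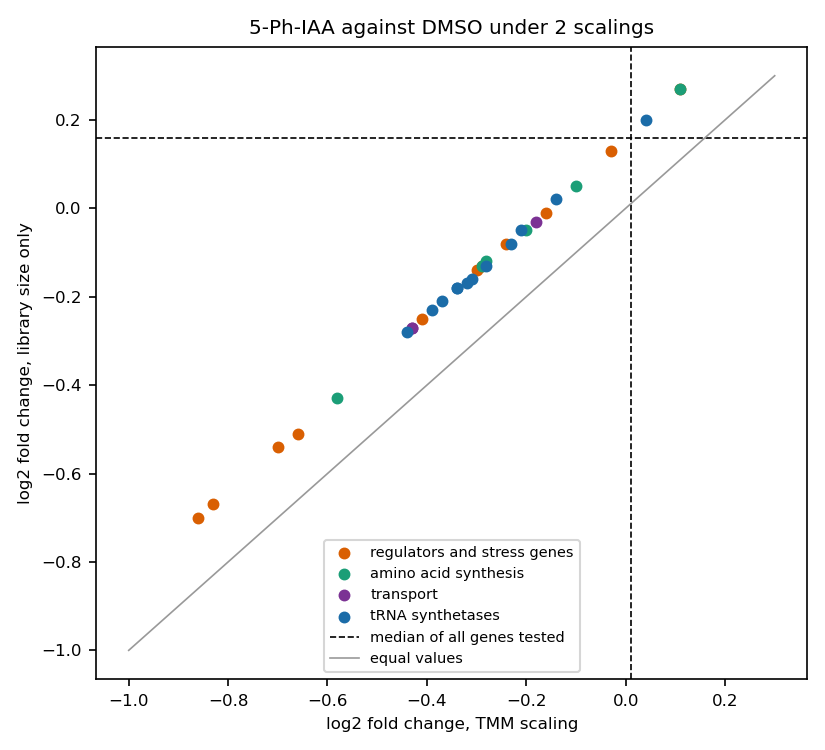
Log2 fold change with 5-Ph-IAA against DMSO with TMM scaling (x axis) and with library size only (y axis). Each point is a member colored by group, dashed lines are the medians of all genes tested (0.01 and 0.16), and the grey line marks equal values. All points lie above the grey line by about the same distance, and most lie below both medians.

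Lists of related genes give the setting. They were described by counts alone. With 5-Ph-IAA 12.2% of all genes were called lower and 9.65% higher, and under prexasertib 10.4% and 7.85%. For these the block called 23.6% and 19%, and 19.9% and 17.2%. With prexasertib 2.37% of all genes were lower and 2.36% higher without 5-Ph-IAA, and 1.26% and 1.17% with it. There the block called 9.77% and 8.37%, and 7.7% and 7.8%. These shares stand beside the counts of every list below. Of 28 further genes of the ATF4 program that were tested, 10 fell and 0 rose with 5-Ph-IAA (median -0.21; 16 and 2 with the block), and 7 fell and 1 rose under prexasertib (median -0.15; 12 and 2 with the block). XPOT, which exports tRNA from the nucleus, fell by 0.78 ± 0.066 and 0.77 ± 0.066 (edgeR adjusted p = 4.2e-06 and 6.5e-06). The gene that rose, the transporter SLC43A1 (0.55 ± 0.17, edgeR adjusted p = 0.045), lost its call without any 1 of the 12 libraries. With prexasertib 4 of the 28 rose and 2 fell without 5-Ph-IAA, and 3 rose and 2 fell with it (7 and 4, and 6 and 4, with the block). GDF15, a stress-induced cytokine that is also a p53 target, rose by 0.67 ± 0.081 and 0.86 ± 0.081 (edgeR adjusted p = 4.3e-04 and 5.5e-05). GPT2, an alanine transaminase, fell by 0.59 ± 0.11 (edgeR adjusted p = 0.0067), and JDP2, a bZIP repressor, by 0.39 ± 0.082 with 5-Ph-IAA present (edgeR adjusted p = 0.021; up to 0.13 without 5-Ph-IAA replicate 2 or without replicate 2 or 3 of both drugs).

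Of 19 genes of the eIF2 kinases, eIF2 and eIF2B, 7 fell and 0 rose with 5-Ph-IAA (8 and 2 with the block) and 6 fell and 0 rose under prexasertib (10 and 0 with the block). EIF2S3, the gamma subunit of eIF2, fell by 0.55 ± 0.064 and 0.46 ± 0.064 (edgeR adjusted p = 6.9e-05 and 2.9e-04). With prexasertib alone EIF2AK2, the kinase PKR, fell by 0.32 ± 0.083 (edgeR adjusted p = 0.045), a call lost without any 1 of 11 libraries, all but 5-Ph-IAA replicate 3. Of 21 genes of the XBP1 and ATF6 arms, the branches of the unfolded protein response that do not run through eIF2, 10 fell and 3 rose with 5-Ph-IAA and 7 fell and 1 rose under prexasertib. XBP1 fell by 1.16 ± 0.13 and 1.13 ± 0.13 (edgeR adjusted p = 3.7e-05 and 5.7e-05), more than any of the 32 members in those comparisons, while ATF6 rose by 0.36 ± 0.067 and 0.32 ± 0.067 (edgeR adjusted p = 0.002 and 0.0055). Without or with 5-Ph-IAA, prexasertib moved 0 of these 21 genes in edgeR, DESeq2 and limma-voom. At an unadjusted p under 0.05 in edgeR there were 5 without 5-Ph-IAA and 3 with it. The block called 4 higher and 2 lower without 5-Ph-IAA and 3 higher and 1 lower with it.

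The remaining cytosolic synthetase genes, 12 with the scaffold genes AIMP1, AIMP2 and EEF1E1, had 5 lower and 0 higher in both 5-Ph-IAA comparisons, with medians of -0.19 and -0.15. AIMP2, a scaffold of the multi-synthetase complex, fell by 0.76 ± 0.11 and 0.93 ± 0.11 (edgeR adjusted p = 4.3e-04 and 1.1e-04), more than any of the 12 member synthetases. Of 17 mitochondrial synthetases 3 fell and 1 rose with 5-Ph-IAA (6 and 1 with the block), and 2 fell and 1 rose under prexasertib, with medians of -0.06 and 0.02. Without the block these mitochondrial counts are near the shares of all genes. HARS2 fell by 0.70 ± 0.11 and 0.60 ± 0.12 (edgeR adjusted p = 7.7e-04 and 0.0029), and TARS2 rose by 0.40 ± 0.075 and 0.37 ± 0.076 (edgeR adjusted p = 0.0022 and 0.004), whereas its cytosolic counterpart TARS1 fell. Prexasertib moved 0 of the 12 and 0 of the 17 genes in either setting in edgeR, DESeq2 and limma-voom (0 and 1 at an unadjusted p under 0.05 in edgeR), and without 5-Ph-IAA the block called 1 cytosolic gene higher and 1 mitochondrial gene lower. The difference between the lists was not tested. With library size alone and 5-Ph-IAA against DMSO, the counts higher and lower were 2 and 5 for the further ATF4 genes, 2 and 3 for eIF2, 4 and 6 for the XBP1 and ATF6 arms, 0 and 4 for the other cytosolic and 2 and 1 for the mitochondrial synthetases. That scaling called 20.6% of all genes higher and 6.73% lower.

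**Figure D5:**
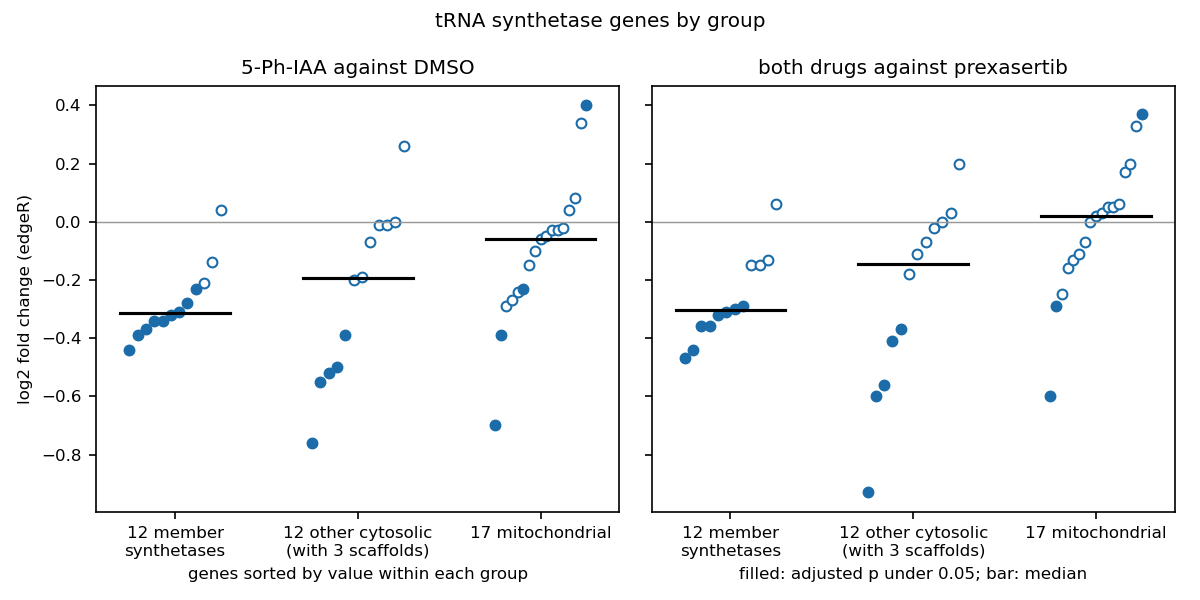
Each point is the log2 fold change (edgeR) of 1 synthetase or scaffold gene, sorted within its list, with 5-Ph-IAA against DMSO (left) and both drugs against prexasertib (right). Filled points have an adjusted p under 0.05 and bars are medians: -0.32, -0.19 and -0.06 on the left, -0.30, -0.15 and 0.02 on the right.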

How the data were processed

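RNA was measured by poly(A)-selected directional sequencing in 12 libraries. The 13 CUT&RUN samples of the series were not analysed here. The authors deposited raw counts per gene, whole numbers that were not normalized. Per the submitters' processing notes, the build was hg38 and the tools included featureCounts 2.0.8 and limma 3.58.1. The aligner, the gene models and the strand option are not given in the sources used. Of 28395 gene IDs, 27745 had an entry in RefSeq, and 650 (0.0324% of all counts) had none.

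The tests used edgeR 4.0.16 (R 4.3.3). The filter filterByExpr (minimum count 10, minimum total 15) kept 14658 genes with 99.92% of the counts. After TMM scaling, a robust quasi-likelihood model with 1 term per group was fitted to all 12 libraries (biological coefficient of variation 12.8%). The code was also run on simulated counts with equal spread for all genes and no shift of replicate 3. That run differs from these data and is no check of the calls given here. P-values were adjusted by Benjamini-Hochberg over all genes tested and called under 0.05. The SE is the size of the log2 fold change divided by the square root of F. The alternatives were RLE factors, library size only, DESeq2 1.42.0, limma-voom 3.58.1, other filters, a replicate block, subsets of libraries, and the block with library size only, which was added after seeing the data. The replicate numbers were used as pairs from the data alone, since every same-numbered pair correlated above 0.1. Every pair of a replicate 1 with a replicate 2 of another group did so too (up to 0.366). This rule thus sets replicate 3 apart but does not tell replicates 1 and 2 from each other. Total counts per library set the precision, and without molecular identifiers the reads need not be separate molecules.

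The members and lists were chosen with earlier results of these data known. Values in every library are given for members called in at least 1 of 4 comparisons that rank in the first 10 by adjusted p, and for ATF4, DDIT3, TRIB3 and ASNS. WARS1 was added after its values were seen. From each further list, the called gene with the smallest adjusted p in each direction is named. Levels of different genes were not compared, since transcript lengths were not used here. Promoter windows come from RefSeq (GRCh38.p14), with none used here for NUPR1, PSPH, SHMT2, LARS1 and YARS1.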

Additional observations from a re-analysis of the deposited data

How the results depend on the processing

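No called value of a member changed direction under an alternative. Library size only gave 6 members lower with 5-Ph-IAA, 7 lower with 5-Ph-IAA under prexasertib, and 11 lower and 1 higher (WARS1) with both drugs against DMSO, since the median of all genes then rose to 0.16, 0.15 and 0.11. Of all genes it called 6.73%, 6.06% and 9.81% lower and, with both drugs, 18.4% higher. With prexasertib that scaling moved the share of calls that were higher from 49.9% to 37.3%, and from 48.2% to 31.6% with 5-Ph-IAA present. With both drugs against DMSO it went from 45.4% to 65.2%.

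The replicate block gave 6 higher and 3 lower with prexasertib, 26 lower with 5-Ph-IAA, 23 lower with 5-Ph-IAA under prexasertib, 4 higher and 3 lower with prexasertib under 5-Ph-IAA, and 1 higher with both drugs against DMSO (22 lower). Combined with library size only, added after seeing the data, the block gave 5 higher and 4 lower with prexasertib (6.38% and 12.2% of all genes). With 5-Ph-IAA it gave 2 higher and 17 lower (34.6% and 12%). With 5-Ph-IAA under prexasertib it gave 1 higher and 17 lower (32.8% and 10.9%). With prexasertib under 5-Ph-IAA it gave 4 higher and 3 lower (4.5% and 11.3%). Both drugs gave 3 higher and 18 lower (31.6% and 16.4%). Without replicate 3 of every group there were 5 higher and 3 lower with prexasertib (7.2% and 7.01% of all genes). That fit also gave 26 lower with 5-Ph-IAA under prexasertib (17.4%). It gave 6 higher and 3 lower with prexasertib under 5-Ph-IAA (6.18% and 7.68%), and 1 higher with both drugs (17.4%). DESeq2 gave 2 higher with prexasertib (3.51% of all genes). A fit of only the 2 groups compared gave 1 higher with prexasertib under 5-Ph-IAA (0.835%). Every other count of members stayed within 1.5 times its value under these settings, RLE factors, limma-voom and the other filters.

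Leaving out 1 library at a time gave 0 to 2 higher with prexasertib, where 1.23% to 2.58% of all genes were. It gave 1 to 2 lower with prexasertib (0.827% to 2.69%). With 5-Ph-IAA 12 to 20 were lower (8.43% to 13.3%), and with 5-Ph-IAA under prexasertib 11 to 16 (7.46% to 10.9%). With prexasertib under 5-Ph-IAA 1 to 2 were higher (0.686% to 1.36%) and 1 to 3 lower (0.363% to 1.64%). Both drugs gave 12 to 18 lower (10.6% to 15%). Against DMSO the 5-Ph-IAA calls of ATF4, DDIT4, STC2, MTHFD2, SLC3A2, SLC7A1, AARS1, CARS1, IARS1, MARS1, NARS1 and TARS1 were kept in all 12. Under prexasertib the SLC3A2 and IARS1 calls were not kept in all, and NARS1 was not called. Depth limits CHAC1 and DDIT3, with 46 and 50 counts in their lowest libraries.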

Other observations

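Replicate 3 of each group stood apart in single members as well. It was the highest of the 3 libraries in all 4 groups for 12 of the 32 genes (37.5%, against 18.4% of all genes tested) and the lowest in all 4 for DDIT3, VLDLR, DDIT4 and TARS1 (12.5%, against 16.5%). On the log2 scale its mean offset from the other replicates over these 12 was 0.40 for ATF5, 0.27 for PHGDH and PSAT1, 0.26 for SHMT2, 0.25 for ASNS and SLC7A5, 0.22 for YARS1, 0.19 for WARS1, 0.18 for SLC3A2, 0.16 for IARS1, and 0.14 for AARS1 and PSPH. For DDIT3 it was -0.80. For ASNS the offset was 0.52 with 5-Ph-IAA alone. These values are a description, with no test.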
